A study of Homo sapiens with 4 samples.

Results

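HPRT1 and 9 other enzymes that make or recycle purine nucleotides were followed in HEK293T cells after RNA interference against CHD6. The 10 genes were HPRT1 and APRT for salvage, PPAT, GART, PFAS, PAICS, ADSL and ATIC for synthesis up to IMP, and IMPDH1 and IMPDH2 for the step from IMP towards GMP. They are 10 of the 18334 genes that the array annotation names, and 27 of its 45220 features. A feature was taken for a gene only if its annotation named that gene alone, and features of a gene were averaged. HPRT1 was chosen by its measured log ratio, which was low on all 4 arrays, so its values are a description and no test is given for it. The other 9 were picked as enzymes of the same pathway.

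Purine nucleotides are built stepwise on phosphoribosyl pyrophosphate (PRPP) until inosine monophosphate (IMP) is reached, and IMP is then turned into AMP or GMP. Salvage is shorter: HPRT1 joins hypoxanthine or guanine to PRPP, and APRT does the same with adenine. PPAT, HPRT1 and APRT therefore draw on the same PRPP. HPRT1 is expressed in nearly all tissues, its loss causes Lesch-Nyhan disease, and it is widely used as a reference gene.

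HEK293T cells derive from human embryonic kidney and express the large T antigen of SV40. CHD6 is a chromatin remodeler of the chromodomain helicase family. Cells received a plasmid expressing either a CHD6 siRNA or a control siRNA and were harvested at 48 h. Each of the 4 arrays compared 1 RNA of each kind directly, with the siRNA sample in Cy3 on replicates 1 and 3 and in Hy5 on replicates 2 and 4. Whether the replicates were separate cultures is not in the labels, and the p-values cover only how far these arrays vary, possibly for technical reasons. The share of cells that took up plasmid is not given in the sources used here, and a ratio cannot tell a change in all cells from a larger change in some of them. Ratios hold no level, so marker levels of the cell line could not be checked.

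Values are log ratios taken as log2 and read as CHD6 siRNA over control. The base is assumed, and the direction is likely but not settled: the array titles name the siRNA first, but the columns of opposite dye orientation ran against each other (Pearson r from -0.84 to -0.68 across features). Values are as deposited unless said otherwise. The means of the 10 enzymes and the counts of each gene list are also given with the arrays turned by dye, meaning that the sign of replicates 1 and 3 was flipped. The targeted gene CHD6 was below control at feature 27564 (-1.13, -1.21, -0.85 and -1.42 on replicates 1 to 4), but not at feature 1672, where the mean was -0.02 ± 0.06 (SD, n = 4). Feature 36130 was at -0.10, -0.01, 0.03 and -0.61, with a mean of -0.17 ± 0.30 (SD, n = 4; limma adjusted p = 0.805 over all features). Turned by dye, feature 27564 would be at -0.16, 1672 at 0.015 and 36130 at -0.14.

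No promoter was assayed here. The bases before the annotated starts of HPRT1, APRT and PPAT are shown to place the gene with the low ratio beside its salvage partner and beside the enzyme that opens synthesis from the same substrate. Each run is the 250 bases before the start, read 5′ to 3′ on the gene's strand (RefSeq, GRCh38.p14). Capitals mark GC boxes (GGGCGG, or CCGCCC on the other strand) and the E-box (CACGTG). HPRT1 lies on chromosome X (chrX:134459915-134460164, plus strand), APRT on chromosome 16 (chr16:88811929-88812178, minus strand) and PPAT on chromosome 4 (chr4:56435616-56435865, minus strand).
HPRT1: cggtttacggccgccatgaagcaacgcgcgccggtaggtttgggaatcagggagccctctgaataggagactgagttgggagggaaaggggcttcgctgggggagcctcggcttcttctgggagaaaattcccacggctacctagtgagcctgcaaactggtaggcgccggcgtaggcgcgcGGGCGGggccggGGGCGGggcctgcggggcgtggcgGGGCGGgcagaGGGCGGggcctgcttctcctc
APRT: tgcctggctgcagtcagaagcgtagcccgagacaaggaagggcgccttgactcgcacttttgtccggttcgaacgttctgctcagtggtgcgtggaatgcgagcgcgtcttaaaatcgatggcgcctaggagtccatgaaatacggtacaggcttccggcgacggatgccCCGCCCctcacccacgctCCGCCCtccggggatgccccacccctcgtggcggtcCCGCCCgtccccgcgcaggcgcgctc
PPAT: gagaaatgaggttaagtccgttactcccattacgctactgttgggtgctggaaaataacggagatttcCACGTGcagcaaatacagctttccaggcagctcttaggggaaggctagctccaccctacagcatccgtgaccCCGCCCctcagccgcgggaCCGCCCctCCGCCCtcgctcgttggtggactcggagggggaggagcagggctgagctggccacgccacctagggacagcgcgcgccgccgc

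The HPRT1 stretch held 4 GC boxes, the APRT stretch 3 and the PPAT stretch 3, with 1 E-box in PPAT. Of the 10 genes, 8 had an entry in the promoter table, read at 1 start per gene, so any other starts were not searched. A GC box was present in 6 of these 8 and in 42.3% of all 27305 promoters of the table, and an E-box in 2 of 8 (PPAT and ATIC) against 6.49% of all. No TATA box (TATAAA, both strands) was found in the 8, against 11.1% of all promoters. A CCAAT box (CCAAT or ATTGG) was found in 1 of 8, GART, against 33% of all. The G and C content was 68.8% for HPRT1 and 66% for APRT, where the median of all promoters was 58%. Over the 8 genes it ran from 41.2% for PAICS to 71.6% for IMPDH1, and PFAS, at 56%, was also below that median. The PAICS start used lay 25108 bases from that of PPAT.

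HPRT1 stood at -0.74 on replicate 1, -1.40 on replicate 2, -0.52 on replicate 3 and -1.87 on replicate 4. All 4 arrays were below 0, and both Hy5 arrays (those with the siRNA sample in Hy5) were lower than both Cy3 arrays, with no overlap. The mean was -1.13 ± 0.62 (SD, n = 4), or 45.7% of control, a 2.19-fold decrease. By orientation it was 64.7% of control with the siRNA sample in Cy3 and 32.3% in Hy5. Turned by dye, the mean would be -0.50, or 70.6% of control, with replicates 1 and 3 above 0 and replicates 2 and 4 below.

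**Figure D1:**
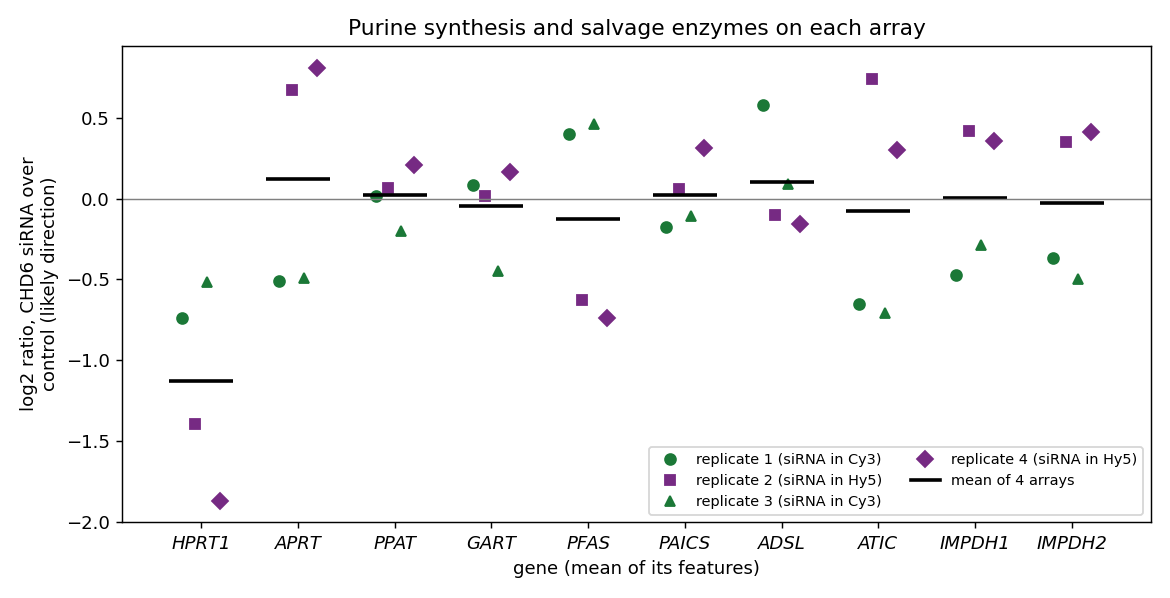
Log2 ratio of each of the 10 enzymes (y axis) on each array, with the colour and shape of a point giving the replicate and the dye of the siRNA sample, and the black bar giving the mean of the 4 arrays. HPRT1 lies below 0 on all 4 arrays, while each of the other 9 genes has arrays on both sides of 0.

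The place of HPRT1 among all genes differed between single arrays. It ranked 54 and 32 from the lowest of 18334 genes on replicates 2 and 4, but 1122 and 1894 on replicates 1 and 3. On replicates 1 and 3, 6.11% and 10.3% of genes were lower. By the mean of the 4 arrays it was the lowest gene of all, ahead of HSPA6, a heat-inducible chaperone of the HSP70 family, at -0.82. That rank is a description only, since HPRT1 was chosen for its low ratio. With the arrays turned by dye HPRT1 would rank 1301 from the lowest. By size, its difference between orientations (-1.0, Hy5 minus Cy3) ranked 3313 of all genes.

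HPRT1 was measured by 10 features, all annotated to transcript NM_000194, and these may carry the same probe sequence. Their values ran from -0.79 to -0.67 on replicate 1, from -1.48 to -1.23 on replicate 2, from -0.60 to -0.31 on replicate 3 and from -2.14 to -1.70 on replicate 4. The ranges of the 4 arrays did not overlap, so the arrays differed by more than the features within an array. The SD between features was 0.040, 0.074, 0.094 and 0.12 on replicates 1 to 4. In all, 120 genes had 10 features of a single accession, HPRT1 among them, and their median SD between features was 0.081 to 0.11 on the 4 arrays. The agreement of the HPRT1 features was therefore ordinary for this array design, ranking 44 of 120 from the smallest SD. HPRT1 had the lowest mean log ratio of the 120 genes, which is a description only, since it was chosen by that ratio. The next lowest were IPO8, an importin, and SMARCAD1, a chromatin remodeler, at -0.25 each. The SD between arrays was 0.62 for HPRT1, against a median of 0.34 over the 120 genes.

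**Figure D2:**
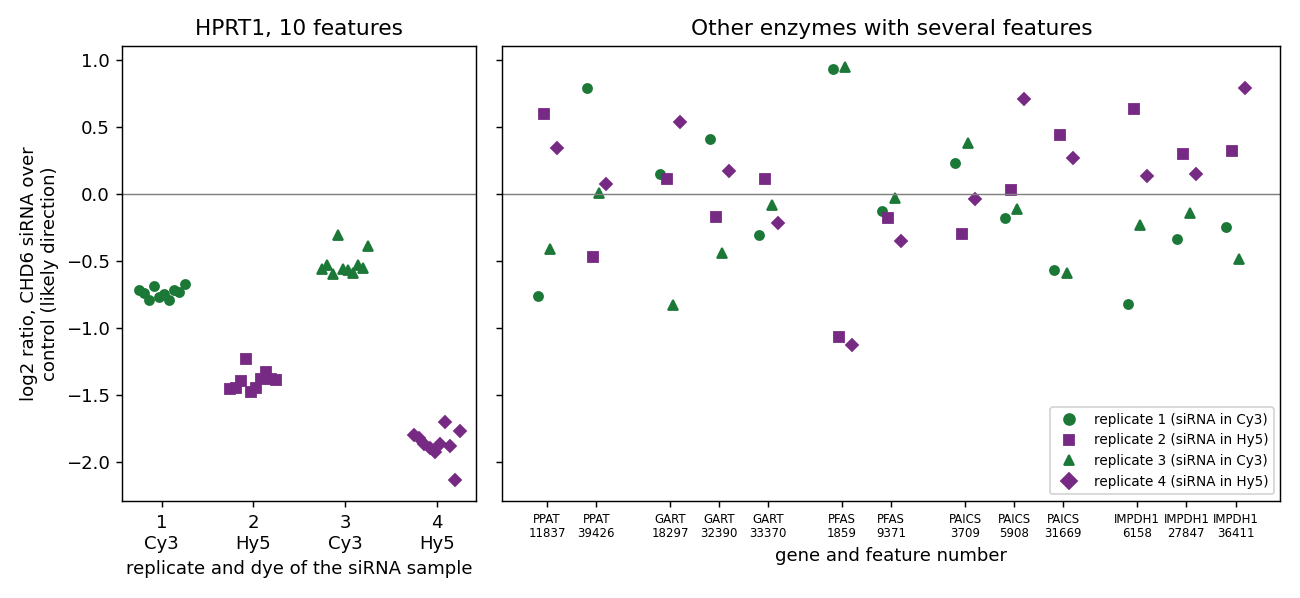
Log2 ratio of every feature of the genes with several features, on each array. Left, the 10 HPRT1 features fall into 4 separate bands, 1 for each replicate. Right, features of PPAT and PAICS differ in the sign of the mean difference between dye orientations, though the orientations of PPAT feature 39426 overlap. The PFAS features differ in how far the orientations lie apart.

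None of the other 9 enzymes was called higher or lower. The test was limma over all genes with dye orientation in the fit and Benjamini-Hochberg adjustment at 0.05, and it called 4 of 18334 genes, or 0.0218%, all lower. Among the 9 enzymes 0 were called, and 0 had an unadjusted p under 0.05, against 9.37% of all genes. Adjusted p-values ran from 0.609 to 0.991. The means ran from -0.13 for PFAS to 0.12 for APRT, with a median of 0.0042, where the median of all genes was -0.0025. As deposited, the 95% intervals of the 9 means together spanned -0.28 to 0.31, or 82.3% to 124% of control. The smallest two-sided p of an exact sign-flip test over 4 arrays is 0.125.

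In the order of the means as deposited, HPRT1 was followed by PFAS, ATIC, GART, IMPDH2, IMPDH1, PPAT, PAICS, ADSL and APRT. The step from HPRT1 to PFAS was 1.0. Steps between the other neighbours were 0.00125 to 0.08, each smaller than the standard error of either gene or close to it, so their order is not resolved. Turned by dye the order would differ: PFAS (-0.56) would lie below HPRT1 (-0.50), and APRT (0.62), ATIC (0.60) and PFAS would each be larger in size than HPRT1. As deposited, 0 of these 9 genes had 1 sign on all 4 arrays, against 7.06% of all genes.

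APRT, the other purine salvage transferase, did not share the low mean of HPRT1. It was at -0.51, 0.67, -0.49 and 0.81 on replicates 1 to 4, with a mean of 0.12 ± 0.72 (SD, n = 4; limma adjusted p = 0.634). The 2 Hy5 arrays were above 0 and the other 2 below, the opposite order to HPRT1. On those other 2, replicates 1 and 3, HPRT1 was below 0 as well, at -0.74 and -0.52. For APRT the estimate over all 4 arrays was as follows. Its 95% interval was -0.036 to 0.28, or 97.5% to 121% of control. Turned by dye, APRT would be at 0.62 and called higher (limma adjusted p = 0.000272). The mean of HPRT1 was thus below 0 and that of APRT above 0 in either reading of the columns. As deposited, however, the APRT interval crossed 0. The difference between them was not tested, since HPRT1 was chosen by its ratio.

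PPAT, which transfers the first nitrogen to PRPP and commits it to purine synthesis, was at 0.015, 0.065, -0.20 and 0.21. Its mean was 0.021 ± 0.17 (SD, n = 4; limma adjusted p = 0.958), and its 95% interval was -0.15 to 0.19. That small mean covered 2 features of the same transcript that disagreed. Feature 11837 was at -0.76, 0.60, -0.41 and 0.34, and feature 39426 at 0.79, -0.47, 0.01 and 0.07. On replicates 1 to 3 the features had opposite signs.

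GART, an enzyme with several activities early in the pathway, was at 0.083, 0.017, -0.45 and 0.16. Its mean was -0.047 ± 0.28 (SD, n = 4; limma adjusted p = 0.925), and the orientations overlapped. Replicate 3 was the lowest array, and the fitted mean without it, with both dye orientations weighted equally, was 0.087. Its 3 features differed in spread: 18297 ran from -0.83 to 0.54, 32390 from -0.44 to 0.41, and 33370 from -0.31 to 0.11. Features 18297 and 32390 were both lowest on replicate 3.

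PFAS, which adds a further nitrogen from glutamine, was at 0.40, -0.63, 0.46 and -0.74. It had the lowest mean of the 9, at -0.13 ± 0.64 (SD, n = 4; limma adjusted p = 0.609). The orientations did not overlap and lay in the same order as for HPRT1. Both features showed this order, but its size came mainly from feature 1859 (0.93, -1.07, 0.95 and -1.13), with a dye coefficient of -2.04 against -0.19 for feature 9371. Feature 9371, annotated to the same transcript, was below 0 on all 4 arrays (-0.13, -0.18, -0.03 and -0.35), with a mean of -0.17 ± 0.13 (SD, n = 4) that did not pass over all features (limma adjusted p = 0.701).

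PAICS, which carboxylates the ring intermediate and joins aspartate to it, was at -0.17, 0.057, -0.11 and 0.31. Its mean was 0.023 ± 0.22 (SD, n = 4; limma adjusted p = 0.956). As for PPAT, its features disagreed: feature 3709 was lower with the siRNA sample in Hy5 and features 5908 and 31669 were higher.

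ADSL, a lyase that acts in synthesis and again in the branch to AMP, was at 0.58, -0.10, 0.09 and -0.16. Its mean was 0.10 ± 0.34 (SD, n = 4; limma adjusted p = 0.789). Replicate 1 was the highest array, and the fitted mean without it, with both dye orientations weighted equally, was -0.02. ATIC, which completes the IMP ring, was at -0.65, 0.74, -0.71 and 0.30, with a mean of -0.08 ± 0.72 (SD, n = 4; limma adjusted p = 0.834). Both genes had 1 feature and orientations that did not overlap, in opposite order to each other.

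IMPDH1 and IMPDH2 are the isozymes that oxidise IMP on the way to GMP. IMPDH1 was at -0.47, 0.42, -0.29 and 0.36 (mean 0.0042 ± 0.45, SD, n = 4). IMPDH2 was at -0.37, 0.35, -0.50 and 0.41 (mean -0.028 ± 0.47, SD, n = 4). The isozymes were alike array by array, with the arrays in Hy5 above 0 and those in Cy3 below. APRT and ATIC had the same signs, and the Hy5 arrays lay above the Cy3 arrays for 41.4% of all genes. The 95% intervals of IMPDH1 and IMPDH2 were -0.16 to 0.17 and -0.18 to 0.13 (limma adjusted p = 0.991 and 0.939). Of the 3 IMPDH1 features, each was higher with the siRNA sample in Hy5.

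The difference with dye orientation was large for most of these enzymes. Of the 9, 8 had orientations that did not overlap, where 70.9% of all genes did so, and GART was the exception. The Hy5 arrays were above the Cy3 arrays for 6 of the 9, against 41.4% of all genes, and below for 2, against 29.5%. limma called the dye coefficient for 5 of the 9 (APRT, PFAS, ATIC, IMPDH1 and IMPDH2), where it called 44.8% of all genes. By direction, 4 were called above 0, against 26.9% of all genes, and 1 below, against 18%. With so few genes, these shares were not far from the background. The coefficients of the 5 were 1.24 for APRT, 1.20 for ATIC, 0.82 for IMPDH2, 0.77 for IMPDH1 and -1.11 for PFAS. Of these 5, ATIC and PFAS act in synthesis up to IMP and moved in opposite directions with the dye, PFAS mainly at feature 1859.

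**Figure D3:**
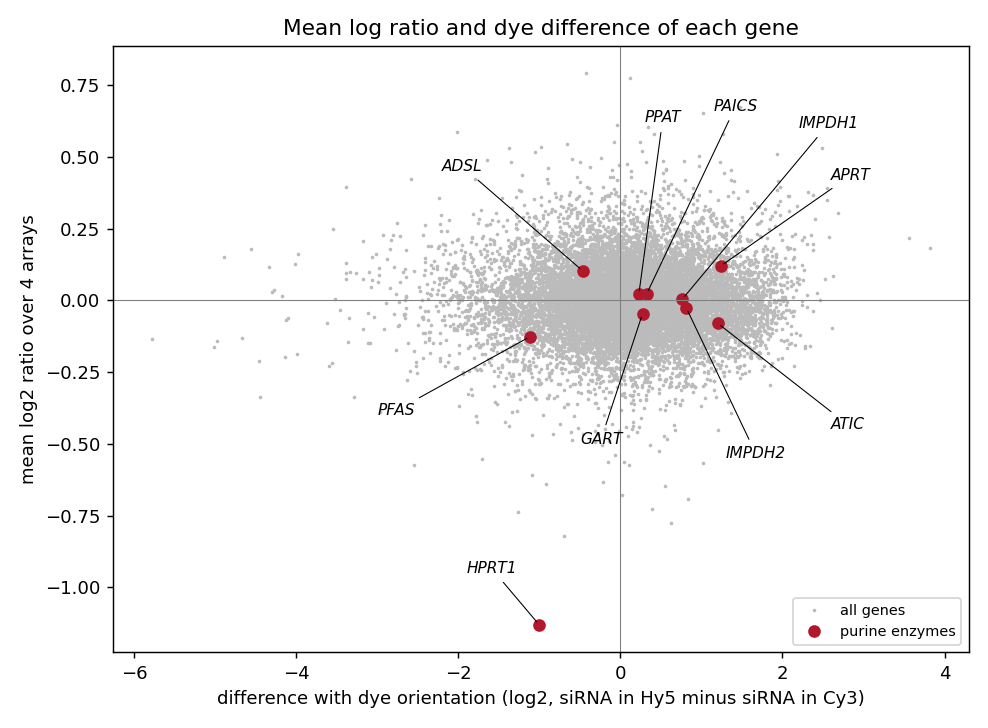
Mean log2 ratio of 4 arrays (y axis) against the difference between dye orientations (x axis, Hy5 minus Cy3) for all 18334 genes in grey and the 10 enzymes in red. HPRT1 lies at -1.13 below the cloud of genes, and the other 9 enzymes lie between -0.13 and 0.12 while spreading from -1.11 to 1.24 along the dye axis.

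Because of this, whether 5 of the 9 enzymes are called depends on the reading of the columns. Turned by dye, 5 of the 9 would be called with dye in the fit, where 44.8% of all genes would be, and 5 with the intercept alone, where 42% would be. APRT (0.62), ATIC (0.60), IMPDH2 (0.41) and IMPDH1 (0.38) would be higher, and PFAS (-0.56) lower. PPAT (0.11), GART (0.14), PAICS (0.16) and ADSL (-0.23) would not pass. The mean of HPRT1 was below 0 in both readings, at -1.13 and -0.50. Only as deposited were all 4 of its arrays below 0, since replicates 1 and 3 would lie above 0 when turned.

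**Figure D4:**
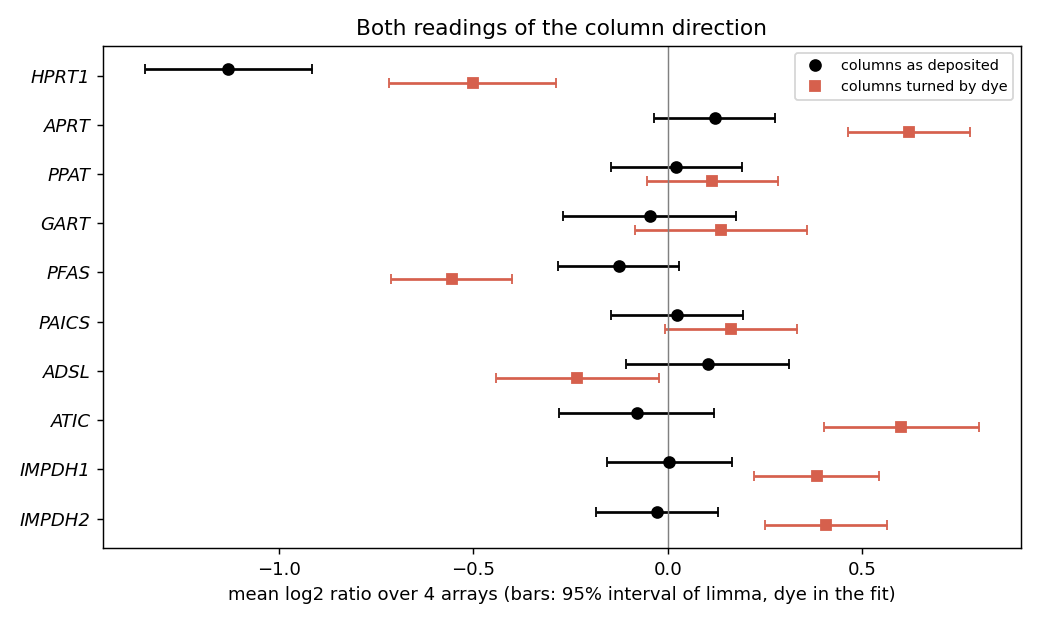
Mean log2 ratio of each enzyme (x axis) with the columns as deposited (black circles) and turned by dye (red squares), with bars for limma's 95% interval with dye in the fit, given for HPRT1 as a description. As deposited, the 9 intervals other than that of HPRT1 cross 0, and turned by dye those of APRT, PFAS, ADSL, ATIC, IMPDH1 and IMPDH2 do not.

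Of 6 genes with several features among the 10, 2 (PPAT and PAICS) had features whose dye coefficients differed in sign, against 47.8% of the 7759 genes with several features. For these, an average over features cancels part of the dye difference. The small dye coefficients of PPAT (0.23) and PAICS (0.33) are such averages.

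The genes nearest to HPRT1 over the 4 arrays, by root mean square difference, were BNIP2 (0.43), HSPA6 (0.46), CIPC (0.50), CTR9 (0.59) and TMEM64 (0.69). BNIP2, a BCL2-interacting protein, was at -0.06, -1.09, -0.15 and -1.65. HSPA6 was at -0.51, -1.35, -0.44 and -0.98, and CIPC, a CLOCK-interacting repressor, at -0.23, -0.80, -0.13 and -1.40. CTR9, a subunit of the PAF1 complex, was at -0.11, -0.55, -0.01 and -1.76. TMEM64 was above 0 on replicates 1 and 3, so not all 5 shared the sign of HPRT1. Turning the columns leaves these differences as they are. No purine enzyme was among these 5. PFAS was the nearest of the other 9, at 1.01, and ranked 511 of all genes by this measure.

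Around the 10 enzymes, 58 further purine genes were listed in 6 groups and 52 of them were measured. limma called 0 higher and 0 lower. Of the 52, 7 had an unadjusted p under 0.05, or 13.5%, against 9.37% of all genes. Their median was -0.016, with 22 means above 0 and 30 below. Below 0 on all 4 arrays were 4, where 3.5% of all genes were, and above 0 on all 4 arrays were 0, against 3.56%. These counts hold for the columns as deposited. Turned by dye, 28 of the 52 would be called, 18 higher and 10 lower, or 53.8%, against 44.8% of all genes, and the extremes would be DCK at -1.78 and PRPS1 at 0.89.

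The enzymes that supply PRPP had a median of -0.03 over 5 genes. PRPSAP1, a protein bound to PRPP synthetase, was at -0.33, -0.20, -0.27 and -0.17. Its 4 arrays lay close together and its mean was -0.24 ± 0.07 (SD, n = 4), or 84.5% of control, but it did not pass (limma adjusted p = 0.321). Turned by dye it would be at 0.058. Its relative PRPSAP2 was at 0.013 (adjusted p = 0.976), the highest of the group. The synthetases PRPS1 (-0.03) and PRPS2 (-0.11) moved with the dye in opposite directions, with coefficients of 1.78 and -1.37.

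The genes of the AMP and GMP branches and of interconversion had a median of -0.06 over 6 genes. GMPR, which returns GMP to IMP, was lowest at -0.15 ± 0.35 (SD, n = 4; limma adjusted p = 0.627), and ADSS1, a muscle-type adenylosuccinate synthetase, highest at 0.045. GMPS, the GMP synthetase, was at -0.03.

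Nucleoside salvage and breakdown had a median of -0.01 over 17 genes. NT5C2, a cytosolic nucleotidase that dephosphorylates IMP and GMP, was lowest. It was at -0.08, -0.21, -0.25 and -0.40, below 0 on all 4 arrays (mean -0.24 ± 0.13, SD, n = 4; limma adjusted p = 0.368), and would be at -0.07 turned by dye. NT5C, another nucleotidase, was highest at 0.12. PNP, the phosphorylase that yields hypoxanthine and guanine for HPRT1, was at -0.12 ± 0.49 (SD, n = 4) and was higher in Hy5 than in Cy3.

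The folate enzymes that supply formyl groups had a median of 0.016 over 8 measured genes. MTHFD2L, a mitochondrial dehydrogenase, was highest at 0.26 ± 0.56 (SD, n = 4; limma adjusted p = 0.368), above 0 in Cy3 and below 0 in Hy5. SHMT2, the mitochondrial serine hydroxymethyltransferase, was lowest at -0.13.

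Nucleotide kinases and ribonucleotide reductase had a median of 0.035 over 9 genes. AK4, a mitochondrial adenylate kinase family member, was at -0.17, -0.20, -0.31 and -0.23 (mean -0.23 ± 0.06, SD, n = 4; limma adjusted p = 0.356), and would be at 0.011 turned by dye. AK3, its mitochondrial relative, was highest at 0.18 but ran from -1.0 to 1.32 with the dye. Nucleoside and base transporters had a median of -0.053 over 7 genes, from SLC29A1 at -0.13 to SLC28A3 at 0.08.

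**Figure D5:**
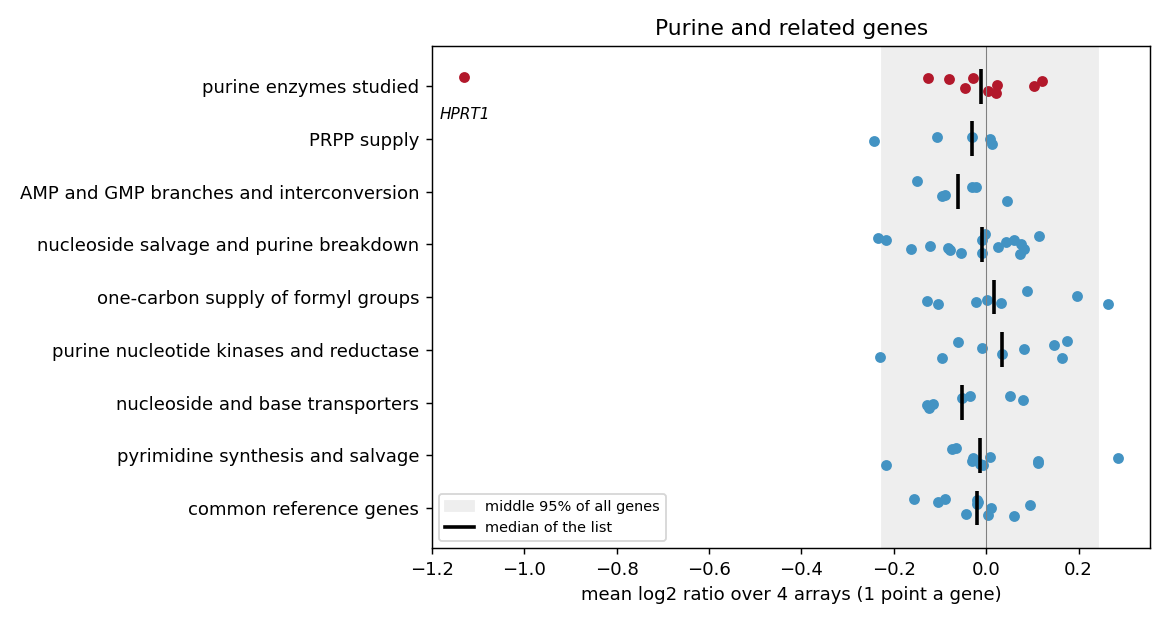
Mean log2 ratio over 4 arrays (x axis) of each gene, 1 point a gene, in the 10 enzymes (red) and in 8 lists of related genes (blue), with black bars for medians and grey for the middle 95% of all genes (-0.23 to 0.24). As deposited, HPRT1 lies far to the left of all other points, and most other genes lie inside the grey band.

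Since HPRT1 serves as a reference gene, 14 common reference genes were listed beside it, and 11 were measured. limma called 0 of them, and their median was -0.019. TBP, the TATA-binding protein, was lowest at -0.16 ± 0.07 (SD, n = 4; limma adjusted p = 0.518) and below 0 on all 4 arrays, and B2M, the light chain of MHC class I, was highest at 0.094. As deposited, the reference genes ran from -0.16 to 0.094, where HPRT1 was at -1.13. Turned by dye, 6 of the 11 (54.5%) would be called, 5 higher and 1 lower, against 44.8% of all genes. The 11 would run from YWHAZ, a signalling adaptor, at -0.44 to PGK1, a glycolytic kinase, at 0.76, a range nearly reaching HPRT1 at -0.50.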

How the data were processed

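RNA of HEK293T cells (200 ng, amplified from an oligo dT-T7 primer per the labels' protocols) was hybridised to 2-colour Agilent arrays. The deposited values were log ratios of the channels of each array, taken here as log2, for 45220 features on 4 arrays, with 0 missing values. How the values were scanned, background-corrected, normalized and directed is not given in the sources used here. Signal over background is unknown without intensities, and precision is limited by the number of arrays.

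Gene names came from the platform's annotation of its probes, brought up to date by gene identifier with a RefSeq table (GRCh38.p14): 31332 named 1 gene (31291 matched), 93 named several and 13795 were unnamed here. Means per gene were fitted with limma 3.58.1 in R 4.3.3, with an intercept and dye orientation, moderated variances and p-values adjusted over all genes by Benjamini-Hochberg. Dye orientation was put in the fit because dye differences otherwise enter the residual spread.

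The members, the lists and this choice were made with earlier results of these data known. Named were the 10 enzymes, CHD6, from each list any called gene and the lowest and highest, and the 5 genes nearest to HPRT1. Other genes named were chosen after their values were seen. Scaling used limma's median absolute values. Alternatives were the intercept alone, turned columns, medians of features, centring, scaling, robust or no moderation, features of several genes, tests of features, and leaving out each replicate.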

Additional observations from a re-analysis of the deposited data

Results flagged for a closer look

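The 4 values of each of 105 genes were searched for a single array set apart by a wide gap, and 1 gene had one, where about 5.25 would by chance. It was no purine enzyme: LYZ, a myeloid marker, was at 0.10 on replicate 2 and at 0.03 to 0.04 on the others. Its mean was 0.05, and 0.033 without that array. For 70.9% of all genes the dye orientations did not overlap, which can hide a single array set apart. Nothing is therefore concluded from the count found against that by chance.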

How the results depend on the processing

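The mean of HPRT1 kept its sign under every alternative that gave a mean per gene. It lay between -1.25 and -1.01 under the 11 of these that did not turn the columns. For those 11 the sign was fixed beforehand, since HPRT1 was chosen for low values on all 4 arrays. Turned by dye it was at -0.50 in both fits. Of the other 9 enzymes, 0 were called under the 12 alternatives that kept the column direction, and 5 when columns were turned, with dye in the fit or with the intercept alone. Turned, GART (0.14), ADSL (-0.23), ATIC (0.60) and IMPDH2 (0.41) changed sign, the last 2 of them called. With the median of features IMPDH1 was at -0.025. Leaving out each replicate gave ranges across 0 for PPAT (-0.033 to 0.075), GART (-0.18 to 0.087), PAICS (-0.042 to 0.087), ADSL (-0.02 to 0.23), ATIC (-0.19 to 0.03), IMPDH1 (-0.042 to 0.05) and IMPDH2 (-0.06 to 0.005). HPRT1 then ranged from -1.25 to -1.01. These are fitted means with both dye orientations weighted equally, so the lone array left in an orientation weighs as much as the pair in the other. Over all genes, limma called 4. It called 0 with the intercept alone (242 at an unadjusted p under 0.05), 0 without any 1 replicate, 8 with medians of features, 7 with centring, 9 with scaling, 7 with robust moderation, and 9 features. Turned by dye it called 8219, or 7700 with the intercept alone. The causes of these moves were not tested, except that fewer arrays give less power. Each ratio already pairs both conditions on 1 array, and with 1 group of arrays no further pairing was made.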

Other observations

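Genes of the sister pathway, pyrimidine synthesis and salvage, were listed beside the purine genes, and 11 were measured. limma called 0 of them. Of the 11, 2 had an unadjusted p under 0.05, where 9.37% of all genes did. UPP1, uridine phosphorylase, was above 0 on all 4 arrays at 0.23, 0.39, 0.13 and 0.39 (mean 0.29 ± 0.13, SD, n = 4; limma adjusted p = 0.254). TK1, the S phase thymidine kinase, was at -0.35, 0.02, -0.41 and -0.13 (mean -0.22 ± 0.20, SD, n = 4; limma adjusted p = 0.371). CAD, which opens pyrimidine synthesis, was at -0.03. Turned by dye, 4 of the 11 (36.4%) would be called, against 44.8% of all genes. UPP1, TK1 and CAD would then be at 0.11, 0.16 and 0.52.

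DCK, the deoxycytidine kinase that also salvages deoxypurine nucleosides, had the largest dye coefficient of the listed purine genes at -3.56, with values of 1.45, -1.84, 1.68 and -2.16. Markers of other cell types (15 of 16 measured) had a median of 0.02 and means from -0.12 for CD3E to 0.096 for LUM, and limma called 0 of them. Turned by dye, 4 of the 15 (26.7%) would be called, all higher, where 26.9% of all genes would be called higher.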
